A study of Macaca mulatta with 16 samples.

Results

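The highly methylated isolated SmaI sites were 152 CCCGGG sites of the rhesus monkey autosomes (rheMac2, chromosomes 1 to 20) that were almost fully methylated in the blood of infant animals and had no other listed SmaI site within 500 bp. They were selected on measured values. A site was kept if 100 or more reads covered it in at least 10 of the 13 libraries of animals fed ad libitum (AL), and if its methylation, corrected with the spiked-in standards, averaged over 90% in the infants. Of 362007 autosomal sites listed, 24288 met the coverage rule, and the 152 sites were 0.626% of those. They were 32.8% of the 463 covered sites with no listed neighbour within 500 bp. The infant values therefore chose the sites, and every comparison with the infants below is a description with no test.

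Whole blood DNA came from 16 rhesus monkeys, with 1 library for each monkey. AL-infant comprised 4 monkeys of 0.8 to 0.9 years, AL-middle 5 monkeys of 10.4 to 12.1 years, and AL-old 4 monkeys of 21.9 to 29.8 years. CR-old comprised 3 monkeys of 23.7 to 25.1 years that had been kept on caloric restriction (CR), a diet reduced in calories that was begun in adulthood. All 3 CR-old monkeys were female, against 1 of 4 AL-old and 1 of 5 AL-middle monkeys, so that sex and diet overlapped in CR-old. Whole blood is a mixture of leukocytes, and a changed share of cell types cannot be told apart here from a changed methylation level within cells.

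Cytosine methylation covers most CpG dinucleotides of the mammalian genome outside CpG islands, and a maintenance methyltransferase copies it to the new strand after each round of replication. Densely methylated DNA with few CpGs is the usual state of intergenic and intronic sequence in blood cells. With age, sites of this kind tend to lose methylation and sites in CpG islands tend to gain it, a pattern called methylation drift. The assay, digital restriction enzyme analysis of methylation (DREAM), cuts unmethylated CCCGGG with SmaI and then methylated CCCGGG with XmaI, and the end left on each fragment shows which enzyme cut it.

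Reads at listed sites ranged from 8067560 to 126804562 per library. Each library had 1 correction constant, a factor on the methylated-to-unmethylated odds that was set from the standards. It was 0.398 to 0.460 in AL-infant, 0.469 to 0.728 in AL-middle, 0.250 to 0.424 in AL-old and 0.494 to 0.772 in CR-old. The AL-old constants lay below all AL-middle and CR-old constants, so the correction lowered AL-old values more. One of the standards, Luc306, read 27.3 to 32.03% before correction in AL-middle and 27.6 and 30.4% in CR-old 1 and 28, whereas it read 41.4 to 56.01% in AL-infant, 50.1 to 68.2% in AL-old and 42.6% in CR-old 4. AL-middle and its set of libraries cannot be told apart. The fully methylated standard Taq324 read 98.2 to 99.4% after correction in all 16 libraries. Partly methylated standards still differed between groups after correction. Taq353 read 34.7 to 40.8% in AL-old, below AL-middle at 46.4 to 53.5% and CR-old at 42.4 to 49.5%. Luc306 differed the other way, at 27.1 to 34.9% in AL-old, 16.1 to 21.7% in AL-middle and 21.5 to 26.8% in CR-old. What these differences contribute to the corrected values was not tested.

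Isolated sites were common in the genome and rare in the data. Of the listed autosomal sites 72.9% were isolated, but 463 of 263803 isolated sites were covered (0.176%), against 23825 of 98204 clustered sites (24.3%). The protocol cut gel slices of 250 to 350 bp and 350 to 500 bp. The nearest listed site lay 503 to 54430 bp from the 152 sites, with a median of 1348 bp. It was within 1000 bp at 48 sites, between 1000 and 2000 bp at 50, between 2000 and 5000 bp at 40, and farther at 14. The nearest site was itself covered at 12 of the 152, of which 7 were over 90% in AL-infant, 4 were between 65 and 90%, and 1 was between 5 and 65%.

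The sites lay on all 20 autosomes, with 18 on chromosome 19, 11 on chromosome 16 and 1 on chromosome 12. Within 2 Mb of a chromosome end lay 35 of them (23.0%), a share close to that of the 5633 clustered sites over 90% (22.6%) and above that of all covered sites (16.4%). The genes and elements at these positions are not given, because no annotation of the rheMac2 build was used here. The median site had 427 reads in the median library, against 539 for the clustered sites over 90%. Between 118 and 146 of the 152 sites reached 100 reads in a given monkey, and 60 reached it in all 16.

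The 152 sites were less methylated in AL-old than in the other groups on the corrected scale. The groups hold different animals, so a fall or rise below is a difference between groups. Their mean methylation was 95.2% ± 0.314 (SD, n = 4) in AL-infant, 92.3% ± 0.951 (n = 5) in AL-middle, 85.3% ± 2.71 (n = 4) in AL-old and 93.1% ± 0.597 (n = 3) in CR-old. Monkey by monkey, the mean was 94.9, 95.6, 95.2 and 95.2% in AL-infant monkeys 49, 52, 54 and 57, and 93.2, 90.9, 93.2, 91.99 and 92.3% in AL-middle monkeys 17, 40, 42, 43 and 46. It was 84.8, 88.7, 85.4 and 82.1% in AL-old monkeys 2, 7, 24 and 33, and 93.6, 92.4 and 93.1% in CR-old monkeys 1, 4 and 28. Every AL-old monkey lay below every other monkey. CR-old and AL-middle overlapped.

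AL-old was lower than AL-middle by 7.07 percentage points (two-sided exact permutation test over monkeys, p = 0.00794, the smallest p that 4 against 5 monkeys can give, adjusted p = 0.0238 over 3 comparisons). CR-old was higher than AL-old by 7.78 points, and the groups did not overlap, but the exact permutation test did not pass (p = 0.0571, adjusted p = 0.0857, smallest possible p = 0.0286 with 3 against 4 monkeys). CR-old exceeded AL-middle by 0.715 points, within the spread between monkeys (exact permutation p = 0.286, adjusted p = 0.286). Among females alone, the 3 CR-old monkeys averaged 8.27 points above the 1 AL-old female, which allows no test.

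The difference between AL-old and AL-middle depended on the correction. Without it, the mean over the same sites was 95.4% ± 0.514 in AL-middle (n = 5), 94.0% ± 2.06 in AL-old (n = 4) and 95.6% ± 0.581 in CR-old (n = 3). AL-old then split into 92.5 and 92.02% in monkeys 2 and 33, below all other monkeys, and 95.9 and 95.8% in monkeys 7 and 24, inside the range of AL-middle. The AL-old minus AL-middle difference was −1.37 points (exact permutation p = 0.278), the CR-old minus AL-old difference 1.52 points (exact permutation p = 0.343), and the CR-old minus AL-middle difference 0.150 points (exact permutation p = 0.714). AL-infant was the most methylated group on both scales, at 97.8 to 98.1% uncorrected.

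**Figure D1:**
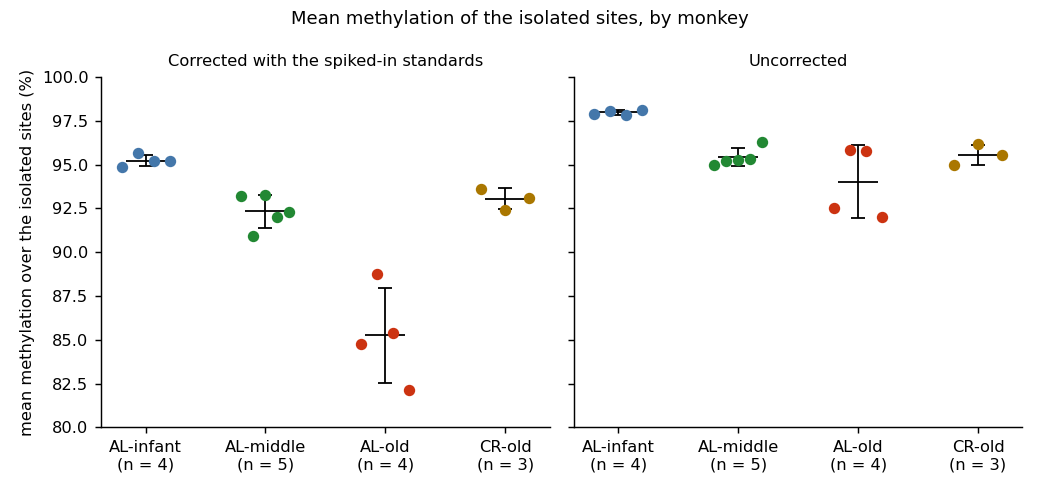
Mean methylation (%) over the 152 isolated sites in each monkey, one point per monkey, by group, with the group mean ± SD in black, after correction with the spiked-in standards (left) and without it (right). The 4 AL-old monkeys sit between 82.1 and 88.7% on the corrected scale, below all others, and between 92.02 and 95.9% on the uncorrected scale, where 2 of them fall inside the AL-middle range.

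The difference was uneven among sites. The median site fell by 8.76 points from AL-infant to AL-old, 63 of 152 sites fell by 10 points or more and 25 by 20 or more, while 39 stayed within 3 points. The fall from AL-infant to AL-middle was smaller, with a median of −1.66 points, and 8 sites had fallen by 10 points or more by middle age. AL-old was the lowest of the 4 group means at 131 sites. As group means, 44 sites were under 80% in AL-old, 4 in AL-middle and 1 in CR-old, and 14 were under 70% in AL-old. At 55 sites all 4 group means stayed over 90%. Between CR-old and AL-middle, 124 of 152 sites differed by less than 3 points.

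On the corrected scale, the spread of methylation among the sites was also wider in AL-old. The standard deviation over sites within a monkey was 2.88 to 3.46 points in AL-infant, 4.75 to 6.81 in AL-middle, 9.63 to 14.3 in AL-old and 4.59 to 5.44 in CR-old. The share of sites under 80% was 0% in each AL-infant monkey. It was 1.40, 6.61, 2.54, 4.23 and 3.79% in AL-middle monkeys 17, 40, 42, 43 and 46. In AL-old monkeys 2, 7, 24 and 33 the share was 29.3, 14.6, 23.5 and 40.7%, and in CR-old monkeys 1, 4 and 28 it was 0.714, 3.52 and 1.42%. AL-old did not overlap either adult group. The AL-old share was 23.3 points above AL-middle (exact permutation p = 0.00794, two-sided, the smallest possible), and CR-old was 25.1 points below AL-old with no overlap (exact permutation p = 0.0571). Without the correction the first difference was 3.41 points (exact permutation p = 0.0952).

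**Figure D2:**
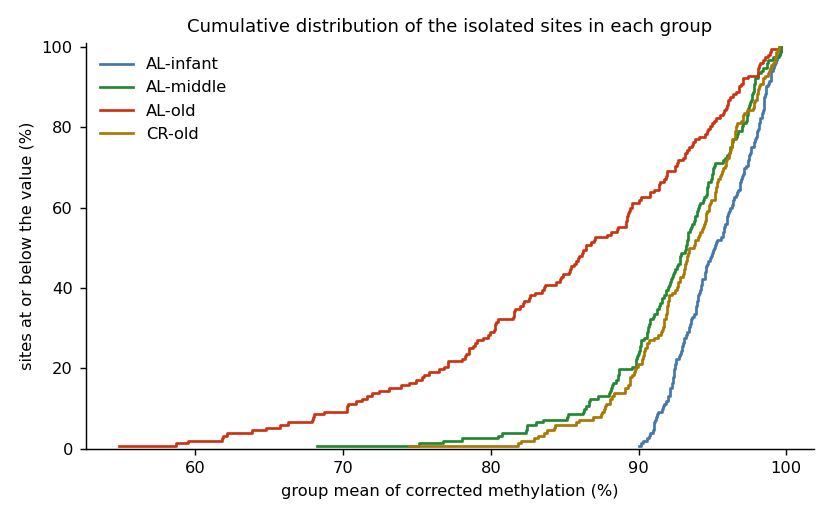
Cumulative share of the 152 isolated sites (%, vertical axis) at or below each group mean of corrected methylation (%, horizontal axis), one line per group. The AL-infant line starts above 90% because the sites were selected there. The AL-old line is spread down to below 60%, with 44 sites under 80%, while the AL-middle and CR-old lines run close together with 4 and 1 sites under 80%.

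Sites that started lower fell farther. The 20 sites of 90 to 92% in AL-infant averaged 87.2% ± 1.79 in AL-middle, 73.5% ± 5.58 in AL-old and 88.0% ± 1.68 in CR-old. The 54 sites of 92 to 95% averaged 90.3% ± 1.06, 81.6% ± 3.02 and 91.6% ± 0.678 in the same order. The 44 sites of 95 to 98% averaged 93.7% ± 1.01, 87.0% ± 3.65 and 93.8% ± 0.770. The 34 sites over 98% averaged 97.2% ± 0.247, 95.5% ± 0.618 and 97.5% ± 0.313 (SD over 5, 4 and 3 monkeys throughout). The AL-old minus AL-middle difference was thus −13.7, −8.75, −6.72 and −1.73 points in the 4 bands. A percentage is compressed near 100%, and on the odds scale the bands were not compared.

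The fall was larger in the classes farther from the next SmaI site, but within the spread between monkeys. AL-old minus AL-middle was −6.05 points for sites 500 to 1000 bp from the next one, −6.69 for 1000 to 2000 bp, −8.16 for 2000 to 5000 bp and −8.49 for the 14 sites beyond 5000 bp. Between the last and the first of these classes the falls differed by −2.44 points (exact permutation p = 0.294, two-sided). The level of the far class minus that of the near class was −6.14, 0.337, 6.69 and −3.73 points in AL-old monkeys 2, 7, 24 and 33. Leaving out AL-old 24 made the difference −4.91 points (exact permutation p = 0.0179), and comparing the 3 sites beyond 10000 bp with those of 500 to 2000 bp turned it to 3.06 points (exact permutation p = 0.325). The same measure for CR-old minus AL-old was 1.31 points (exact permutation p = 0.714). The 35 sites within 2 Mb of a chromosome end fell by 6.80 points from AL-middle to AL-old, and the other 117 fell by 7.17 points.

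**Figure D3:**
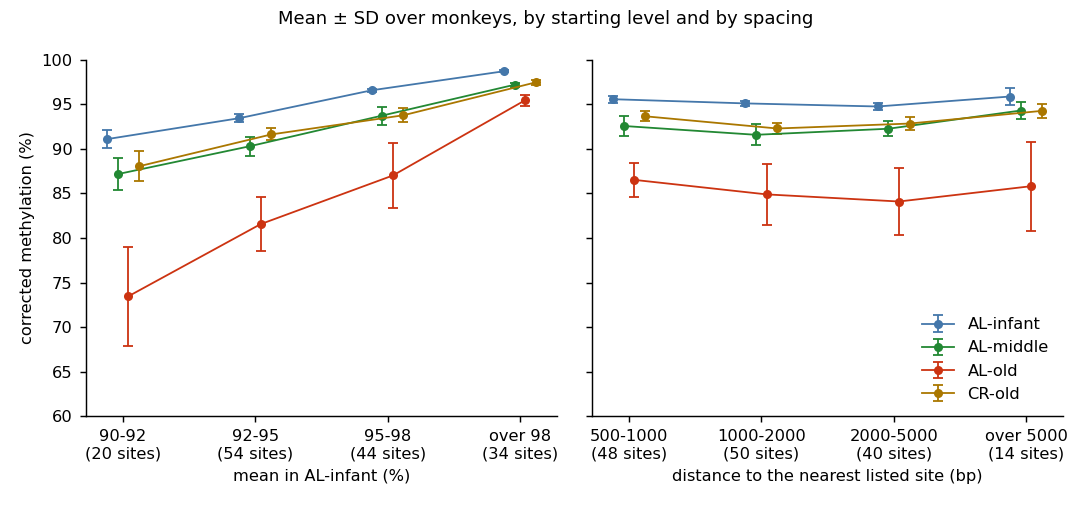
Corrected methylation (%) as mean ± SD over the monkeys of each group, for the isolated sites split by their AL-infant mean (left) and by distance to the nearest listed SmaI site in bp (right). The gap between AL-old and the other adults narrows from the 90 to 92% band (73.5% in AL-old) to the band over 98% (95.5%), and AL-old minus AL-middle runs from −8.49 to −6.05 points over the spacing classes.

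Isolated and clustered sites over 90% differed little in level. The 5633 clustered sites, chosen by the same level and coverage but with a listed neighbour within 500 bp, averaged 95.4% ± 0.364 in AL-infant, 92.1% ± 1.27 in AL-middle, 84.96% ± 3.25 in AL-old and 92.5% ± 0.891 in CR-old. Over the 12 adult monkeys the isolated sites were 0.337 points more methylated (higher in 9 of 12 monkeys, two-sided exact sign-flip permutation test, p = 0.0249), and 0.215 points more without the correction (exact permutation p = 0.0254). The test is over monkeys and takes the sites as given. Its p does not measure the spread between isolated sites, whose SD within an adult monkey was 4.59 to 14.3 points. With 20 instead of 100 reads as the minimum, which made 412 isolated sites, the difference was 0.0266 points (exact permutation p = 0.852). The difference changed by 0.0833 points between AL-middle and AL-old (exact permutation p = 0.825) and by 0.245 points between AL-old and CR-old (exact permutation p = 0.486), both within the spread between monkeys.

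Site by site, a quasi-binomial model on the methylated and total reads, with the correction constant as an offset, tested 133 of the 152 sites between AL-old and AL-middle. Of these, 39 were lower in AL-old at an adjusted p under 0.05 and 1 was higher. Over all autosomal sites tested, 14.1% were lower and 2.68% higher. Among the clustered sites over 90%, 1185 of 5193 were lower (22.8%). The median log2 odds ratio was −0.99 for the isolated sites, −0.94 for the clustered ones and −0.38 for all sites tested. Of the 60 isolated sites read in all 16 monkeys, 16 had every AL-old monkey below every AL-middle monkey, as had 1088 of 3962 clustered sites and 16.6% of all sites so covered.

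Other models moved these counts. With reads weighted so that no library counted for more than about 100 reads at a site, 44 sites were lower (19.4% of all sites tested), of which, with the 1 higher site, 34 were called in the same direction by both models. With limma on the corrected log odds, 29 were lower (13.1% of all sites tested). Without the correction, 6 isolated sites were lower and 5 higher, against 1.36% and 13.2% of all sites tested. With each library centred on the median clustered site over 90% in place of the standards, 9 were lower and 3 higher, against 3.83% and 10.3%. Such centring removes any shift that the isolated sites share with the clustered ones. Leaving out AL-middle 17, AL-middle 42 or AL-old 33 left 20 of 118, 24 of 128 and 23 of 96 sites tested as lower. The shares of all sites tested were then 6.92, 10.2 and 14.0%.

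The CR-old against AL-old comparison tested 123 of the 152 sites, and 27 were higher in CR-old and 0 lower (1 lower at an unadjusted p under 0.05). Over all sites tested 13% were higher and 0.492% lower, and 1101 of 5354 clustered sites over 90% were higher (20.6%). Every CR-old monkey was above every AL-old monkey at 21 of the 60 fully covered sites, at 1552 of 3962 clustered sites and at 24.3% of all sites so covered. With weighted reads 19 isolated sites were higher (10.2% of all sites tested). With limma on the corrected log odds 0 were higher (0% of all sites tested), although 50 had an unadjusted p under 0.05. Without the correction 1 was higher and 1 lower, against 0.145% and 1.93%, and with centring on the clustered sites 2 were higher and 1 lower, against 1.14% and 1.62%. The site higher without the correction, named after its values were seen, was SmaI_rheMac2_324760 on chromosome 18 at position 52890116, with AL-old at 65.4, 86.7, 82.2 and 74.01% and CR-old at 98.7, 91.8 and 97.3% (site model, adjusted p = 0.00854 with the correction and 0.0465 without it). Leaving out CR-old 1 or 28, or AL-old 2, 24 or 33, left 13 to 17 higher calls, against 5.97 to 12.4% of all sites tested. Without AL-old 33, 13 of 96 isolated sites were higher (13.5%), near the 12.4% of all sites. Leaving out AL-old 7 gave 39 of 103 (37.9%), against 26.5% of all sites tested. Both comparisons used the same 4 AL-old monkeys, so the 21 sites called lower in AL-old in the one and higher in CR-old in the other, of 114 tested in both, are not independent calls. The same share was not computed over all sites, so the count is not read as particular to the isolated sites.

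**Figure D4:**
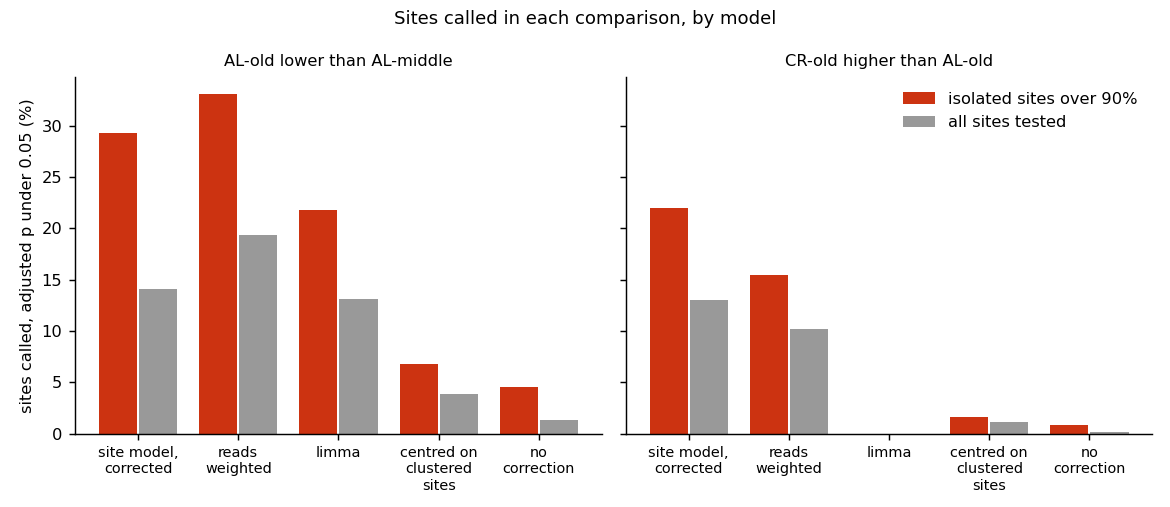
Share of sites called at an adjusted p under 0.05 (%, bars from 0) among the isolated sites over 90% (red) and among all sites tested (grey), for AL-old lower than AL-middle (left) and CR-old higher than AL-old (right), under 5 models. The isolated sites go from 39 calls of 133 with the correction to 6 without it on the left, and from 27 of 123 to 1 on the right, where limma calls 0.

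Single sites are given with their corrected methylation in every monkey, in the order of monkeys used above. Over the 440 values of the 29 sites with an interval computed, the 95% Wilson interval of counting error had a half-width of 2.55 points in the median and 11.7 at most. These intervals cover counting error only, since amplified reads without molecular identifiers are not independent molecules. Of the 6 sites named for a fall from AL-middle to AL-old, 1 was called without the correction, and of the 4 named for a rise in CR-old, 0 were called without it or with limma. Among the 60 fully covered sites, the largest fall from AL-middle to AL-old of a site called and not overlapping was at SmaI_rheMac2_199957 on chromosome 10 at position 64270803, 1348 bp from the next site. It read 90.5, 95.1, 94.1 and 93.5% in AL-infant and 89.55, 92.7, 94.5, 91.3 and 92.5% in AL-middle. AL-old read 61.65, 82.5, 70.7 and 59.99%, and CR-old read 87.0, 76.9 and 89.1%. No AL-old monkey reached the AL-middle range, CR-old 4 fell between AL-old 7 and AL-old 24, and the other CR-old monkeys lay just under AL-middle. The log2 odds ratio of AL-old to AL-middle was −2.03 (site model, adjusted p = 0.0141), and that of CR-old to AL-old was 1.42 (adjusted p = 0.0668).

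SmaI_rheMac2_288658 on chromosome 15 at position 105062542 was 90.3, 94.5, 90.5 and 89.4% methylated in AL-infant and 83.0, 81.3, 79.3, 83.5 and 85.3% in AL-middle. AL-old read 62.7, 64.3, 64.4 and 46.5%, and CR-old read 87.8, 80.5 and 84.7%. AL-old lay lowest, AL-middle and CR-old overlapped above it, and AL-infant lay above both. The log2 odds ratio was −1.74 for AL-old to AL-middle (site model, adjusted p = 0.00552) and 2.02 for CR-old to AL-old (adjusted p = 0.00979), with a rise of 24.9 points that was the largest among the sites eligible for naming. Uncorrected, AL-old read 70.4 to 88.0% and CR-old 89.4 to 90.3%, still without overlap, while AL-middle read 84.5 to 92.6%.

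At SmaI_rheMac2_316174 on chromosome 17, position 75882365, AL-old was below AL-infant by more than at any other fully covered site, and the mean fell by 32.9 points. It was 94.3, 94.3, 87.8 and 90.1% methylated in AL-infant and 81.7, 69.8, 73.8, 73.8 and 76.7% in AL-middle. AL-old read 52.25, 63.2, 68.2 and 51.1%, and CR-old read 82.85, 84.6 and 78.04%. AL-middle was already below AL-infant, AL-old lay below both, CR-old overlapped AL-middle, and CR-old was higher than AL-old by 23.1 points (log2 odds ratio 1.42, site model, adjusted p = 0.0142). The call between AL-old and AL-middle (log2 odds ratio −1.23, site model, adjusted p = 0.0211) was lost without AL-middle 17 (adjusted p = 0.108) and with limma (adjusted p = 0.0583).

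SmaI_rheMac2_326678 on chromosome 18 at position 72055859 had the smallest spread in AL-old of the 6 sites named for a fall (SD 4.73 points, n = 4). AL-infant read 95.9, 93.2, 94.3 and 86.9%, AL-middle 91.2, 81.9, 91.9, 87.6 and 90.8%, AL-old 70.6, 69.5, 79.5 and 70.04%, and CR-old 89.96, 91.1 and 90%. AL-old lay below all other monkeys. It was called in both comparisons (site model, log2 odds ratio −1.91, adjusted p = 0.00188, and 1.92, adjusted p = 0.00277). It was also one of the pair of sites lower in AL-old with the correction, without it (adjusted p = 0.0195) and after centring on the clustered sites (adjusted p = 0.0499).

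The other of that pair, named after its values were seen, was SmaI_rheMac2_255378 on chromosome 13 at position 136948772. It read 92.2 to 93.8% in AL-infant and 92.9, 92.1, 94.1, 92.3 and 92.7% in AL-middle. AL-old read 76.9, 95.5, 79.03 and 66.3%, and CR-old read 97.5, 87.7 and 94.9%. AL-old 7, at 95.5%, was above every AL-middle monkey, so the groups overlapped. AL-old 7 had 442 reads there, against 521 to 6044 in the other AL-old monkeys. The log2 odds ratio of AL-old to AL-middle was −2.22 with the correction (site model, adjusted p = 0.00133), −1.58 without it (adjusted p = 0.00756) and −1.08 after centring (adjusted p = 0.00792).

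SmaI_rheMac2_59087 on chromosome 3 at position 32959473 was the most deeply read of the 152 sites, with a median of 51102 reads and 17405 to 474662 per monkey, against 4252 at the next deepest site. It read 92.01, 93.3, 91.7 and 91.5% in AL-infant and 94.4, 92.7, 94.6, 93.9 and 93.3% in AL-middle. AL-old read 73.8, 89.3, 80.4 and 69.8%, and CR-old read 92.8, 89.6 and 92.8%. AL-old 7 stood just under CR-old 4 and the other 3 AL-old monkeys were lower, at 80.4% or less. Both calls passed with the correction (site model, log2 odds ratio −1.95, adjusted p = 0.0119, and 1.65, adjusted p = 0.0368). The call between AL-old and AL-middle also passed after centring (adjusted p = 0.0160) and was lost without the correction. That between CR-old and AL-old was lost without the correction, after centring and with limma. Whether the site has copies elsewhere in the genome was not tested.

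SmaI_rheMac2_308146 on chromosome 16 at position 76604740 fell from 92.7% ± 2.05 (n = 5) in AL-middle to 78.1% ± 8.01 (n = 4) in AL-old. AL-infant read 95.6 to 96.9%, AL-middle 95.1, 89.9, 93.5, 93.5 and 91.4%, and AL-old 82.03, 85.05, 78.45 and 66.75%, below both without overlap (site model, log2 odds ratio −1.80, adjusted p = 0.0206). CR-old at 94.1, 86.95 and 88.4% was not called against AL-old (adjusted p = 0.125). The call between AL-old and AL-middle was lost without AL-middle 17 (adjusted p = 0.0715). SmaI_rheMac2_188662 on chromosome 10 at position 941619 read 90.5 to 96.2% in AL-infant and 91.6, 79.1, 89.9, 89.4 and 90.9% in AL-middle. It was higher in CR-old, at 91.8, 90.1 and 91.1%, than in AL-old, at 70.6, 84.6, 80.05 and 70.8% (log2 odds ratio 1.67, site model, adjusted p = 0.0207). That call was lost without CR-old 1, CR-old 28 or AL-old 2 (adjusted p = 0.0724, 0.0589 and 0.0792). The mean of SmaI_rheMac2_210213 (chromosome 11, position 6536036) fell by 28.5 points between AL-infant and AL-old, next in size among the 60 fully covered sites after SmaI_rheMac2_316174 and SmaI_rheMac2_288658, but AL-old 7 at 78.7% overlapped AL-middle at 72.6 to 85.1% and neither comparison was called (site model, adjusted p = 0.331 and 0.126). The other AL-old monkeys read 59.5, 62.9 and 54.1%, and CR-old read 84.3, 76.5 and 85.3%.

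Other isolated sites hardly moved. Over the 12 adult monkeys the range of a fully covered site was 1.39 to 55.6 points, with a median of 15.8. The 4 narrowest were SmaI_rheMac2_153212 on chromosome 7 at position 165797727 (98.5 to 99.9% in the adults), SmaI_rheMac2_342576 on chromosome 19 at position 54437667 (97.2 to 99.1%), SmaI_rheMac2_334602 on chromosome 19 at position 15044312 (97.2 to 99.4%) and SmaI_rheMac2_84787 on chromosome 4 at position 37102945 (96.2 to 98.4%). Their ranges were 1.39, 1.91, 2.24 and 2.27 points, and each of the 4 groups stayed over 97% in the mean at each of them. At such levels a factor on the odds moves the percent little. In log2 odds the first of them differed by 1.64 between AL-old and AL-middle (site model, adjusted p = 0.169), a difference of 0.396 points, and it was called higher in AL-old after centring on the clustered sites (adjusted p = 0.0469).

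**Figure D5:**
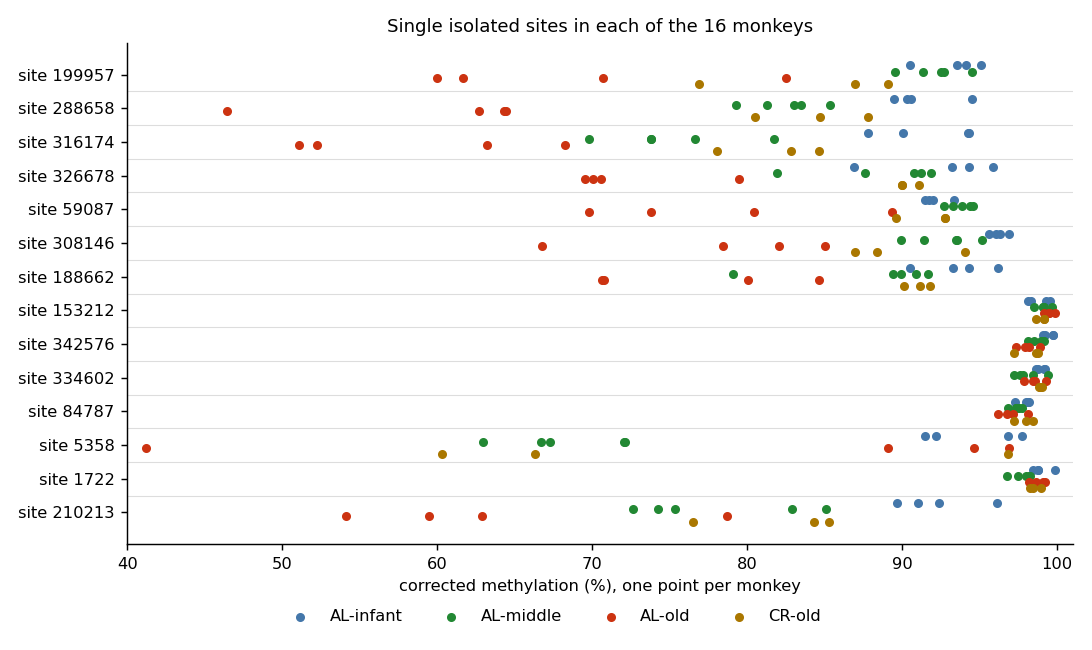
Corrected methylation (%) of the 14 isolated sites named by rule, one point per monkey, coloured by group and with one row per site (numbers are the ends of the site names). In the upper 6 rows every AL-old point lies left of every AL-middle point, in the next row every AL-old point lies left of every CR-old point, the following 4 rows lie between 96.2 and 99.9% in every monkey, and the monkeys of AL-old and of CR-old split at SmaI_rheMac2_5358.

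Few sites were higher in AL-old than in AL-middle. The 1 site called higher, SmaI_rheMac2_192100 on chromosome 10 at position 15757470, named after its values were seen, read 88.7, 88.7, 85.3, 86.7 and 84.1% in AL-middle. AL-old read 94.4, 91.7, 90.1 and 97.5%, and CR-old read 88.5, 89.7 and 88.96%. AL-infant read 92.8, 95.8 and 93.1%, with 8 reads in the other infant. AL-old was above both other adult groups without overlap, and CR-old lay within or just above the AL-middle range (log2 odds ratio of AL-old to AL-middle 1.06, site model, adjusted p = 0.0268). It was also higher without the correction (adjusted p = 0.00326) and after centring (adjusted p = 0.00977). Uncorrected, AL-middle read 89.3 to 93.97%, and CR-old 1 and 28 read 90.9 and 92.8%. CR-old 4 read 94.7%, AL-old 97.2 to 99.1% and AL-infant 96.8 to 98.1%. The libraries thus divided as by the Luc306 standard, whose part in this was not tested.

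By mean difference, the largest rise among fully covered sites was at SmaI_rheMac2_5358 on chromosome 1 at position 13562933, where monkeys fell into separate levels that crossed the groups. It read 96.8, 97.7, 92.2 and 91.5% in AL-infant and 72.1, 66.7, 67.3, 63.0 and 72.1% in AL-middle. AL-old read 96.9, 41.2, 89.1 and 94.6%, and CR-old read 66.3, 96.8 and 60.3%. CR-old 4 read with the infants and most of AL-old, and CR-old 1 and 28 read within or just under the AL-middle range, which is also how the libraries divided by the Luc306 standard, whose part in this was not tested. AL-old 7, which had 2069 reads against 117 to 783 elsewhere, was apart from both. The mean difference of 12.3 points and the read-weighted log2 odds ratio of −1.17 had opposite signs, and the site was not called (adjusted p = 0.191). The next rise by rule, 1.06 points at SmaI_rheMac2_1722 on chromosome 1 at position 4034511, was not called (adjusted p = 0.226), with AL-middle at 96.8 to 98.3% and AL-old at 98.2 to 99.2%. Without the correction SmaI_rheMac2_1722 was called higher in AL-old (site model, adjusted p = 0.0401). Uncorrected, AL-middle with CR-old 1 and 28 read 97.8 to 99.18%, and the other libraries read 99.19 to 100%, again the division by Luc306.

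SmaI_rheMac2_275977 on chromosome 15 at position 5327486, named after its values were seen, also differed in reads. It had 6934 to 10392 reads in AL-infant, and 339 to 4095 in AL-middle. The 4 AL-old libraries had 12362, 15, 1205 and 7165 reads, and those of CR-old had 31, 10317 and 161. Its methylation was 99.1 to 99.6% in AL-infant, and 85.3 to 92.6% in AL-middle. AL-old 2, 24 and 33 read 96.3, 95.05 and 92.7%, and CR-old 4 and 28 read 98.2 and 90.96%. AL-old was not called against AL-middle with the correction (site model, adjusted p = 0.137). The site was called higher in AL-old without the correction (adjusted p = 0.0132) and after centring (adjusted p = 0.00715). The 7 libraries with the most reads lay at 92.7 to 99.6%, and the 7 others with a value lay at 85.3 to 95.05%. Uncorrected, AL-middle read 91.2 to 94.5% and CR-old 28 read 94.4%, whereas the other libraries with a value read 97.2 to 99.8%. The libraries divided there as by the Luc306 standard, whose part in this was not tested.

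Of the 126 sites read in all 3 CR-old monkeys, CR-old 4 was at least 10 points above both others at 1, SmaI_rheMac2_5358, and at least 10 points below both at 3. Those 3 were SmaI_rheMac2_199957, described above, and, named after their values were seen, SmaI_rheMac2_115272 on chromosome 6 at position 23349681 and SmaI_rheMac2_170367 on chromosome 9 at position 430564. SmaI_rheMac2_115272 read 70.3% in CR-old 4 and 89.7 and 90.8% in CR-old 1 and 28, and AL-old read 60.9, 88.6, 71.5 and 59.96%. SmaI_rheMac2_170367 read 86.8% in CR-old 4 and 97.5 and 97.1% in the others. Over the 152 sites, CR-old 4 alone, whose Luc306 reading was the nearest of the 3 to AL-old, was 7.16 points above the AL-old mean on the corrected scale, with a correction constant of 0.494 against 0.250 to 0.424 in AL-old. Uncorrected, it read 96.2%, against 92.02 to 95.9% in AL-old. The part of the correction in this difference was not tested.

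On the corrected scale, each AL-old monkey had some of the lowest values. The lowest of the 16 monkeys was an AL-old monkey at 51 of the 60 fully covered sites, in 22 AL-old 33, in 13 AL-old 24, in 9 AL-old 2 and in 7 AL-old 7. AL-old 33 was more than 10 points below every other monkey at 7 sites, and AL-old 2, 7 and 24 each at 1. The same counts without the correction, or over other sites, are not given here. Uncorrected, the means of AL-old 7 and 24 over the isolated sites were 95.9 and 95.8%, inside the AL-middle range. AL-old 7 had the highest mean of the 4 and was 29.8 years old. The ranks of the sites correlated positively between monkeys of every pair of groups, to differing degrees. Spearman correlations over the 60 sites are given as a description of sites within the same assay. They were 0.763 to 0.874 between AL-middle monkeys, 0.635 to 0.803 between AL-old monkeys and 0.558 to 0.828 between AL-middle and AL-old monkeys. Between AL-infant and AL-old monkeys they were 0.467 to 0.801, and between AL-infant and CR-old monkeys 0.521 to 0.718. Between AL-old and CR-old monkeys they were 0.534 to 0.866.

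At the thresholds of the rule, the sites just inside and just outside are given as a description. The 6 sites of 90 to 91% in AL-infant averaged 89.01% in AL-middle and 72.5% in AL-old (AL-old minus AL-middle −16.5 points), and the 8 isolated sites of 89 to 90% averaged 82.7 and 70.9% (−11.8 points). The 37 sites covered in exactly 10 of the 13 AL libraries averaged 91.97% in AL-middle and 82.7% in AL-old (−9.31 points), and 49 sites covered in exactly 9 averaged 91.7 and 85.5% (−6.20 points). The 9 sites with the nearest listed site within 550 bp averaged 89.9% in AL-middle and 86.3% in AL-old (−3.61 points), and the 2 sites at 450 to 500 bp averaged 93.1 and 86.5% (−6.67 points). The AL-old levels were nearer to each other across the limits than the differences from AL-middle, which were larger inside the rule for level and coverage and smaller inside it for spacing. When each infant was left out of the choice in turn, the mean over the sites so chosen was 94.55, 95.6, 94.9 and 95% in the infant left out.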

How the data were processed

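DREAM libraries of whole blood DNA from 16 rhesus monkeys were analysed. Per the site names and the study's methods, reads were mapped to rheMac2, which was used here. The submitters' processing notes list a mouse build for these libraries instead. Those notes name Bowtie2 and SAMtools (versions not given in the sources used here). The authors deposited, per SmaI site, counts of methylated, unmethylated and total reads, a raw percent with 0.5 added to the methylated and 1 to the total reads, and a percent adjusted to spiked-in standards by 1 odds factor (a ratio) per library, with which the deposited columns matched at every site checked. The uncorrected percent used here was methylated over total reads. A correction moves every site of a library together.

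Values under 100 reads were left out, and libraries held 8067560 to 126804562 reads at sites. The groups came from the labels. The members and lists were chosen with earlier results of these data known. Means and shares per monkey were compared with two-sided exact permutation tests over monkeys. Sites with 100 or more reads in at least 3 monkeys of both groups were fitted with a quasi-binomial model (minus the logarithm of the library constant as offset, dispersion moderated with limma 3.58.1 in R 4.3.3, Python 3.11.15, Benjamini-Hochberg over all autosomal sites tested). On simulated counts every changed site it called had the right direction. Its false calls stayed near the chosen rate when the simulated spread of levels between monkeys shrank as reads rose. They exceeded it when that spread was the same at any depth. A model with weighted reads was therefore added after the data had been seen. Sites were named by rule among the 60 with 100 reads in all monkeys: the 6 largest falls from AL-middle to AL-old and the 4 largest rises from AL-old to CR-old among called, non-overlapping sites, the 4 smallest adult ranges, the 2 largest rises from AL-middle to AL-old and the 3 largest falls from AL-infant to AL-old. Others are marked as named after their values were seen. Sites outside chromosomes 1 to 20 were not used here. Alternatives covered the correction, coverage minimum, level, spacing, model and each monkey left out.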

Additional observations from a re-analysis of the deposited data

Results flagged for a closer look

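Among 42 groups (AL-middle and AL-old, over 21 measures), 5 held a monkey far from the others by Dixon's criterion. Chance flags about 1 in 20 independent groups, or 2.1. The measures include the sites named from these same values and share the same monkeys, so 5 against 2.1 does not show an excess. AL-infant was not examined, because its values chose the sites. AL-middle 46 had an uncorrected mean over the isolated sites of 96.3%, against 94.97 to 95.3% in the other AL-middle monkeys. AL-old 33 read 46.5% at SmaI_rheMac2_288658, against 62.7 to 64.4% in the rest of AL-old. AL-old 24 read 79.5% at SmaI_rheMac2_326678, against 69.5 to 70.6%. AL-middle 40 read 79.1% at SmaI_rheMac2_188662, against 89.4 to 91.6%. AL-old 7 read 41.2% at SmaI_rheMac2_5358, against 89.1 to 96.9%.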

How the results depend on the processing

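No paired analysis was possible because the groups compared share no replicate numbers. The AL-old minus AL-middle difference in mean methylation kept its direction and its call with other coverage minimums, level and spacing limits and the median over sites, and it was −8.22 to −6.02 points with any 1 monkey left out. Without the correction it was −1.37 points, with sites chosen on the uncorrected percent −1.90 points, and for the share under 80% without the correction 3.41 points, none of which passed. Isolated minus clustered sites came to 0.0266 points at 20 reads. The contrast of sites far from and near to the next SmaI site was unstable. For AL-old minus AL-middle it was −4.91 to −0.631 points with 1 monkey left out, passing without AL-old 24, and 3.06 for the 3 sites beyond 10000 bp. For CR-old minus AL-old it was −0.497 to 3.78 points with 1 monkey left out, reversing without AL-old 2, −0.253 at 20 reads, −0.0370 at 200 reads and −2.91 for those 3 sites.

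Sites called lower and higher in AL-old than AL-middle numbered 6 and 5 without the correction and 9 and 3 with centring on clustered sites. At 20 reads they were 82 and 4 of 356 tested, against 12.8 and 2.48% of all sites tested. At 200 reads, where fewer sites were tested, 24 of 77 were lower, against 15.1% of all sites. Limma called 0 higher (3 at an unadjusted p under 0.05). With 1 monkey left out the counts were 20 to 49 lower and 0 to 2 higher, with 0 higher without AL-middle 43 and 2 without AL-old 7. Of all sites tested, 6.92 to 28.2% were then lower and 0.989 to 4.79% higher. Sites called higher and lower in CR-old than AL-old numbered 1 and 1 without the correction and 2 and 1 with centring. With the 12 adults in one fit they were 58 and 1 of 123, against 23.8 and 1.35% of all sites tested. With sex as a term over 16 monkeys they were 43 and 1, against 17.9 and 1.91% of all sites tested. They were 62 higher of 355 tested at 20 reads and 0 higher with limma, against 11.4% and 0% of all sites tested. With 1 monkey left out the counts were 13 to 39 higher and 0 to 1 lower, the 1 without AL-old 7. Of all sites tested, 5.97 to 26.5% were then higher and 0.152 to 1.09% lower. For named sites, 56 of 74 values kept their call and 18 lost it, and with 1 monkey left out 77 kept it and 5 lost it, none reversing. The causes were not tested. Centring and weighted reads were added after seeing the data.

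Of the 152 sites, 60 had 100 reads in every monkey, which limited the sites named by rule. The correction constants differed between AL-old and the other adult groups, so group and correction cannot be told apart. With 3 CR-old monkeys, all female, sex and diet cannot be told apart.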
